A study of Homo sapiens with 24 samples.

Results

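The libraries described here are the late part of a pulse-chase in U2OS cells, a human osteosarcoma line, in which newly made RNA had been tagged with bromouridine (BrU). They are the 8 libraries at 4 and 6 h of chase, out of 24 in the series, and were chosen by arm and time alone: 4 from induced and 4 from uninduced cells, with 2 libraries at each time in each arm. All came from a custom double stable Tet-off line, in which doxycycline keeps a transgene silent. The uninduced cells grew with doxycycline. The induced cells grew without it and expressed TOB2 carrying S254D, a change that mimics phosphorylation of a serine. Drug and mutant therefore changed together and their contributions cannot be told apart. An arm with unmutated TOB2 was not analysed here. In each library cytoplasmic RNA had been extracted and its BrU-tagged part recovered with an antibody. The labels number the replicates 1 and 2 without saying that they were separate cultures, so the p-values below measure only the spread between these samples, which may be technical.

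TOB proteins belong to the BTG/TOB antiproliferative family. They bind the deadenylase subunits of the CCR4-NOT complex through their amino-terminal domain and cytoplasmic poly(A)-binding protein through motifs in the rest of the chain, and so bring poly(A) tail shortening to mRNAs. Shortening of the tail is the usual first step of mRNA decay, ahead of decapping and digestion from the 5′ end or attack by the exosome from the 3′ end.

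The unit was TPM, the transcript level scaled for length and to the same total in each library. A value is thus a share of the tagged cytoplasmic RNA, the sequencing depth is unknown, and a loss common to all RNAs leaves no trace. A level here also depends on tagged RNA still leaving the nucleus while the chase ran, which the data do not separate from loss. In bulk samples such as these, fewer cells of a kind and less RNA per cell cannot be told apart. Of 25341 genes, 13416 averaged at least 1 TPM over the 24 libraries and were tested. They held at least 99.87% of the TPM in each late library. The first principal component of the late libraries carried 39.9% of the variance, and both arm and time moved along it. Uninduced 4 h libraries lay at -31.3 and -30.3, uninduced 6 h libraries at 1.55 and 4.58, induced 4 h libraries at -0.573 and -10.7, and induced 6 h libraries at 34.2 and 32.5. Induced cells at 4 h were therefore placed nearer to uninduced cells at 6 h than to the other groups on this axis. The second component, with 14.3% of the variance, set them apart. On it induced 4 h libraries lay at 19.3 and 10.9 and uninduced 6 h libraries at -16.6 and -24.7.

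TOB2 itself came first, as the check on the labels. Its level was 168 and 171 TPM at 4 h and 105 and 92.3 TPM at 6 h in the uninduced libraries. In the induced libraries it was 529 and 677 TPM at 4 h and 711 and 576 TPM at 6 h. Every induced library lay above every uninduced one, and the uninduced level was lower at 6 h than at 4 h in both replicates. The late difference, meaning induced minus uninduced on the scale of log2(TPM + 1) with time as a factor, was 2.25 (SE 0.19, adjusted p = 0.00215) by limma, a 4.65-fold ratio of mean TPM. Reads of the transgene and of the cell's own TOB2 mRNA share this entry and cannot be separated.

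**Figure D1:**
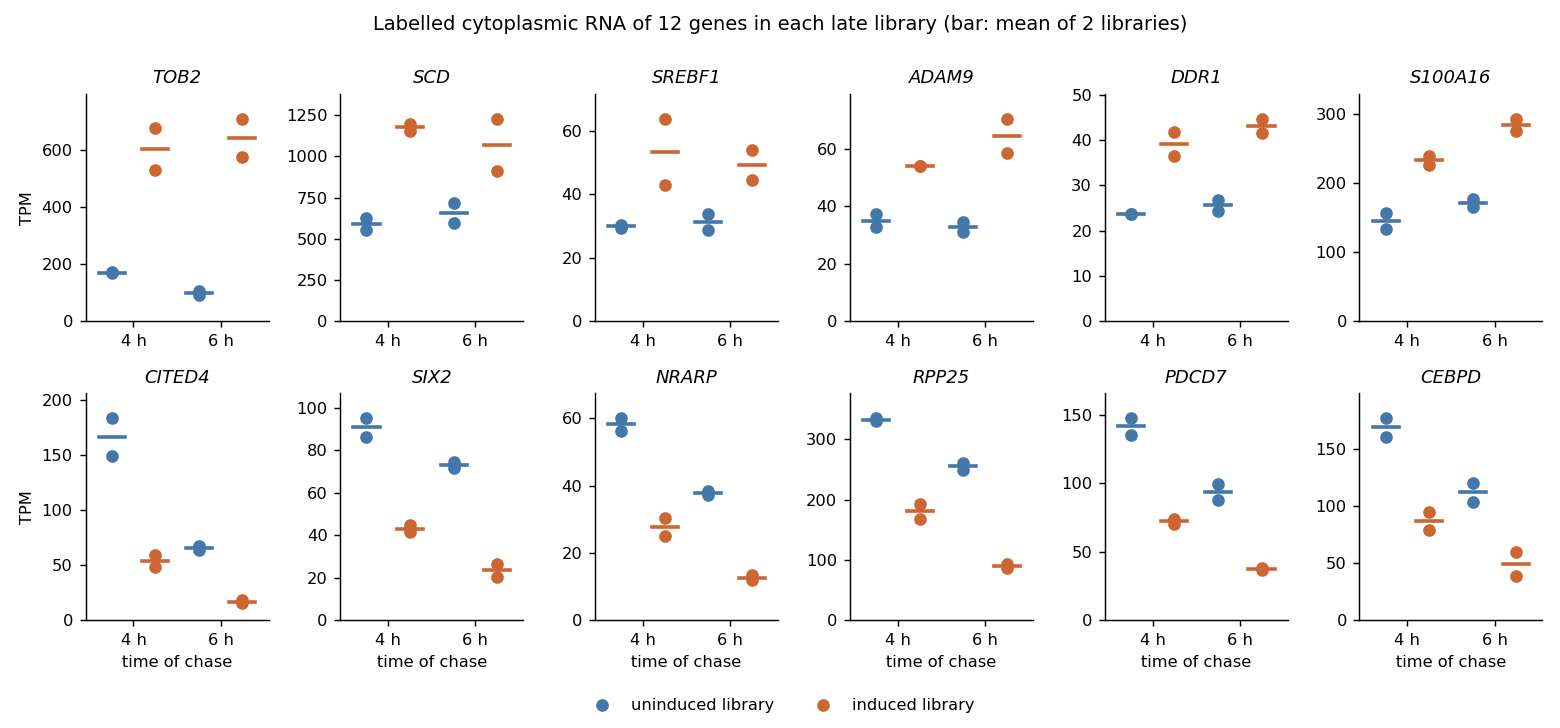
TPM (vertical axes, each from 0) of 12 genes at 4 and 6 h of chase, with 1 point for each library and a bar at the mean of 2 libraries. TOB2 and the 5 genes beside it were higher in every induced library, and the 6 genes of the lower row were lower in every induced library. Apart from TOB2, arms that do not overlap were a condition for naming these genes.

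At the late chase 2872 genes, 21.4% of those tested, differed between arms (limma, two-sided, Benjamini-Hochberg adjusted p under 0.05 over all genes tested). Of these 1224 were higher in induced cells (9.12% of genes tested) and 1648 were lower (12.3%). The median difference over all genes tested was 0.029. Differences were modest in both directions and larger among the lower genes. The median was 0.32 for genes called higher, of which 8 differed by more than 2-fold, and -0.46 for genes called lower, of which 55 did. A change of more than 1.5-fold was found for 70 of the higher and 506 of the lower genes. When any single library was left out, 449 to 1043 genes were called higher and 948 to 1580 lower. The lowest counts came without induced 6 h replicate 2. The higher count also moved by more than 1.5 times without uninduced 6 h replicate 2 (549), induced 6 h replicate 1 (684), uninduced 6 h replicate 1 (714), uninduced 4 h replicate 2 (801) or uninduced 4 h replicate 1 (808). The lower count moved as far without uninduced 6 h replicate 2 (1088) and without uninduced 6 h replicate 1 (1021). All 2872 genes kept their direction in each of these 8 fits. A fit that drew the spread from all 24 libraries called 562 higher and 1608 lower, so that 25.9% of its calls were higher against 42.6%. Each time alone, with 2 libraries an arm, gave 0 calls in limma, with 2230 genes at 4 h and 3836 genes at 6 h at an unadjusted p under 0.05.

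**Figure D2:**
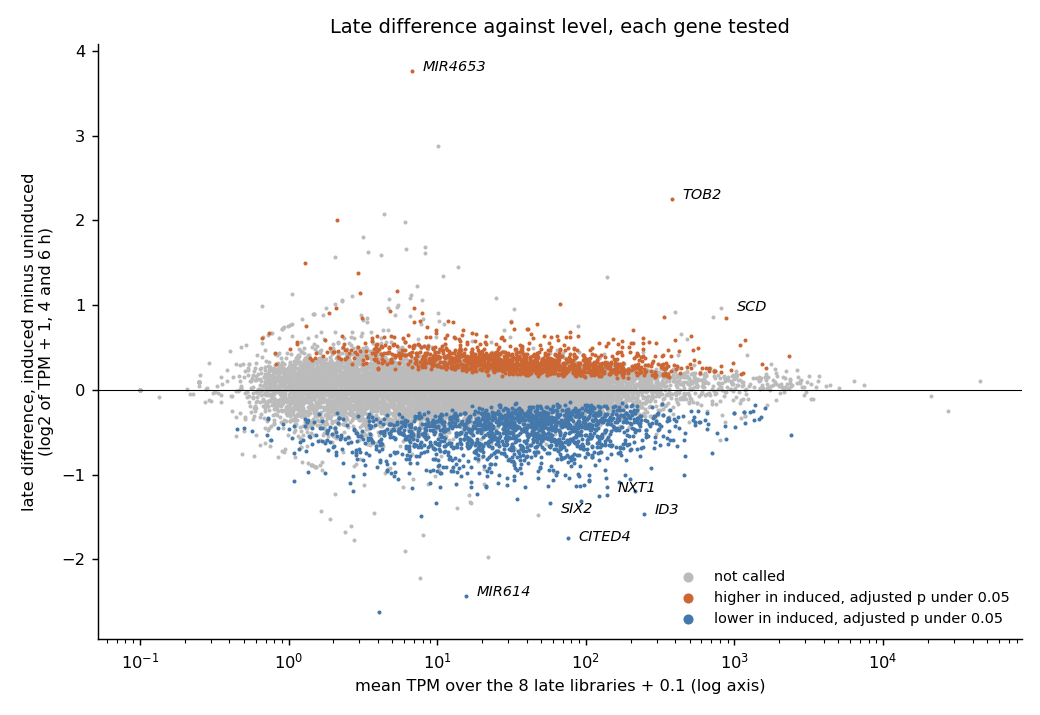
Late difference between arms (vertical axis, log2 of TPM + 1) against the mean TPM of the 8 late libraries plus 0.1 (horizontal log axis) for each of 13416 genes. Genes called lower reach further from 0 than most genes called higher, while TOB2 stands at 2.25 and CITED4 at -1.74.

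The 15 mRNAs with the largest falls in induced cells, among those whose libraries did not overlap between arms, included 8 messages for regulators of transcription or signalling. CITED4, a transcriptional coregulator, was present at 184 and 149 TPM at 4 h and 63.7 and 67.4 TPM at 6 h in uninduced cells and at 48.4 and 59.4 TPM at 4 h and 15.7 and 18.6 TPM at 6 h in induced cells. Every induced library was below every uninduced one, and in both arms the level was lower at 6 h. The late difference was -1.74 (SE 0.11, adjusted p = 0.00125), and mean TPM was 3.27-fold lower in induced cells. SIX2, a homeobox factor, stood at 86.2 and 95.3 TPM at 4 h and 74.6 and 71.9 TPM at 6 h in uninduced cells and at 41.5 and 44.8 TPM at 4 h and 20.6 and 26.5 TPM at 6 h in induced cells. The arms were separate at both times and the gap was wider at 6 h. Its difference was -1.33 (SE 0.13, adjusted p = 0.00288), a 2.46-fold reduction. NRARP, a feedback inhibitor of Notch signalling, stood at 60.2 and 56.4 TPM at 4 h and 38.4 and 37.4 TPM at 6 h without induction and at 25.1 and 30.5 TPM at 4 h and 13.4 and 11.9 TPM at 6 h with it. Here too no induced library reached the lowest uninduced value, and the difference was -1.28 (SE 0.11, adjusted p = 0.00235).

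Other members of this group work in RNA processing and DNA repair. RPP25, a protein subunit of RNase P and RNase MRP, ranged over 249.5 to 335 TPM in the uninduced and 86.8 to 193 TPM in the induced libraries, a difference of -1.19 (SE 0.12, adjusted p = 0.00308). PDCD7, a component of the minor spliceosome, ranged over 88.0 to 148 TPM in the uninduced and 36.7 to 73.8 TPM in the induced libraries, with a difference of -1.13 (SE 0.083, adjusted p = 0.00215). ALKBH2, a DNA repair demethylase, ranged over 74.9 to 133 TPM in the uninduced and 33.3 to 69.6 TPM in the induced libraries, with a difference of -1.04 (SE 0.079, adjusted p = 0.00215). All 3 were lower in every induced library. The Wnt receptor FZD9 differed by -1.11, the transcription factors CEBPD, THAP11 and TLX3 by -1.08, -1.06 and -1.01, and KCTD11, a suppressor of Hedgehog signalling, by -1.02. The remaining 4 were C9orf69 (-1.14), C19orf83 (-1.10), ITPRIPL2 (-1.02) and TPGS1, a subunit of the tubulin polyglutamylase (-1.33). Adjusted p-values of the 15 ran from 0.00125 to 0.0171 in limma. TPGS1 alone among them lost its call when 1 library was left out (adjusted p = 0.051 without uninduced 6 h replicate 1 and 0.054 without uninduced 6 h replicate 2), and it lost it too with no filter on low values (0.0517).

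The 15 mRNAs with the largest rises, TOB2 included, were likewise taken from those whose libraries did not overlap between arms. Among them was SCD, the desaturase that makes monounsaturated fatty acids. It stood at 628 and 551 TPM at 4 h and 717 and 595 TPM at 6 h in uninduced and 1155 and 1195 TPM at 4 h and 910.2 and 1229 TPM at 6 h in induced cells. The arms did not overlap, although 1 induced 6 h library was well below the other 3. The late difference of SCD was 0.85 (SE 0.12, adjusted p = 0.00534), a 1.80-fold ratio of mean TPM. SREBF1, which encodes a transcription factor for fatty acid synthesis genes, ranged over 28.7 to 33.6 TPM in the uninduced and 42.9 to 63.8 TPM in the induced libraries, with a difference of 0.71 (SE 0.13, adjusted p = 0.0109).

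ADAM9, a membrane-anchored metalloprotease, stood at 37.2 and 32.9 TPM at 4 h and 31.2 and 34.4 TPM at 6 h in uninduced and 54.1 and 53.9 TPM at 4 h and 70.5 and 58.5 TPM at 6 h in induced cells. Each induced value was above all uninduced values, and the difference was 0.78 (SE 0.10, adjusted p = 0.00369). DDR1, a receptor kinase for collagen, ranged over 23.6 to 26.8 TPM in the uninduced and 36.6 to 44.8 TPM in the induced libraries, and its difference was 0.72 (SE 0.063, adjusted p = 0.00235). S100A16, a calcium-binding protein, ranged over 133 to 177 TPM in the uninduced and 226 to 293 TPM in the induced libraries, with a difference of 0.70 (SE 0.064, adjusted p = 0.00235). PINK1, the kinase that marks damaged mitochondria, rose by 0.80 (adjusted p = 0.00492). Other rises were those of ENO3, a muscle enolase (0.96), HSPB7, a small heat shock protein (0.90), NSMCE1 (0.81), CRIP1 (0.80), UNC13A (0.70), TMEM120A (0.79) and INO80B (0.75). Adjusted p-values of the 15 ran from 0.00215 to 0.0311. The call of INO80B ended in 7 of 8 fits that left out 1 library and held only without induced 4 h replicate 2 (adjusted p up to 0.0875). That of TMEM120A ended in 5 of them and held without uninduced 4 h replicate 1, uninduced 6 h replicate 2 or induced 6 h replicate 1 (adjusted p up to 0.0647). Both ended with no filter on low values (0.079 and 0.0701), and INO80B also in the fit of all 24 libraries (0.0947).

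The late differences were next set against those of the first hour, the mean over the 0, 0.5 and 1 h libraries, which share no library with the late ones. For the genes called lower at the late chase, the median difference was -0.07 in the first hour, -0.15 at 2 h, -0.41 at 4 h and -0.52 at 6 h, and 1169 of the 1648 already had the same sign in the first hour. For the genes called higher it was 0.13, 0.26, 0.31 and 0.33 at the same times, and 1064 of 1224 shared the sign. The first-hour median over all genes tested was 0.0545, so a positive sign was the more common one among all genes too. The 2 groups were chosen on the 4 and 6 h values, so only the first-hour and 2 h medians are independent of that choice. A direct test of the late minus the first-hour difference called 768 genes (5.72%). Of these 734 had moved down in induced relative to uninduced cells (5.47%) and 34 had moved up (0.253%). Leaving out single libraries gave 473 to 978 of the former, with 473 without uninduced 6 h replicate 1 and 480 without induced 4 h replicate 1. The upward count ran from 13 to 63. It was 63 without induced 1 h replicate 1, 17 without uninduced 0.5 h or 1 h replicate 1, 15 without induced 6 h replicate 1, and 13 without uninduced 4 h replicate 1, uninduced 6 h replicate 1, induced 4 h replicate 1 or induced 6 h replicate 2. The upward share was 4.43% of calls on TPM as deposited, but 21.2% after median-of-ratios scaling (153 up, 570 down) and 24.7% after quantile normalization (212 up, 646 down).

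ID3, which blocks DNA binding by helix-loop-helix factors, had the largest downward shift by this test. It stood at 502 and 484 TPM at 4 h and 239.6 and 193 TPM at 6 h in uninduced late libraries and at 195 and 212 TPM at 4 h and 65.4 and 69.3 TPM at 6 h in induced ones. Within each time the induced values were lower, while the arms overlapped between 4 h induced and 6 h uninduced libraries. The difference was 0.12 in the first hour and -1.47 late, a shift of -1.58 (limma adjusted p = 1.99e-07). CITED4 shifted by -1.31 (adjusted p = 0.000919), CITED2, a coregulator of the same family, by -1.19 (adjusted p = 0.00106), the microRNA host transcript MIR22HG by -1.13 and FKBPL by -1.12. In the other direction TOB2 shifted by 0.90 (adjusted p = 0.00182), from 1.35 in the first hour. The readthrough transcript BLOC1S5-TXNDC5 moved from -0.91 to 0.31, and NPFF, a neuropeptide precursor, from -0.50 to 0.25. Neither of these 2 differed between arms at the late chase itself (adjusted p = 0.278 and 0.317). The shift of BLOC1S5-TXNDC5 lost its call in 12 of 20 fits that left out 1 library and held without replicate 1 at 0 h of either arm, uninduced 0.5 h replicate 1, induced 0.5 h replicate 2, either uninduced 1 h library, induced 1 h replicate 2 or uninduced 6 h replicate 1 (adjusted p up to 0.0959). That of NPFF lost it in 14 and held without uninduced 0 h replicate 1, induced 0 h replicate 2, induced 0.5 h replicate 2, induced 1 h replicate 1, induced 4 h replicate 2 or uninduced 6 h replicate 1 (adjusted p up to 0.138), and both the median-of-ratios and the quantile scaling ended it (adjusted p = 0.0588 and 0.0615). Of the 15 mRNAs with the largest late falls 12 also passed this test (of which FZD9 and ITPRIPL2 did not after either scaling, nor C19orf83 and KCTD11 after quantile normalization), and of the 15 with the largest late rises only TOB2 and TMEM120A did. Both sets of 15 were chosen on late values that this test also holds, which favours passing. Among all genes tested 5.47% passed downward and 0.253% upward. The shift of TMEM120A lost its call without uninduced 0.5 h replicate 1, replicate 1 at 4 or 6 h of the uninduced arm, induced 4 h replicate 2 or an induced 6 h library (adjusted p up to 0.0822).

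Whether the gap between arms differed between 4 and 6 h was tested by an interaction term. In limma 1 gene was called (0.00745%), in the upward direction (0.00745%), and 0 genes (0%) in the downward one, while 685 genes had an unadjusted p under 0.05. The called entry was MIR4746, a microRNA precursor listed at 0 in all 4 late uninduced libraries and in both induced 4 h libraries. Leaving out single libraries gave 1 to 10 calls, and the count moved by more than 1.5 times whichever library was left out, other than uninduced 6 h replicate 2. The direction moved too, with 0 higher and 1 lower without that library, 0 and 2 without induced 4 h replicate 1, 1 and 7 without uninduced 6 h replicate 1, and 2 and 5 without induced 4 h replicate 2. MIR4746 is named here after its values were seen. Among the 15 mRNAs with the largest falls the gap was numerically wider at 6 h than at 4 h in 14, and among the 15 rising mRNAs in 8.

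**Figure D3:**
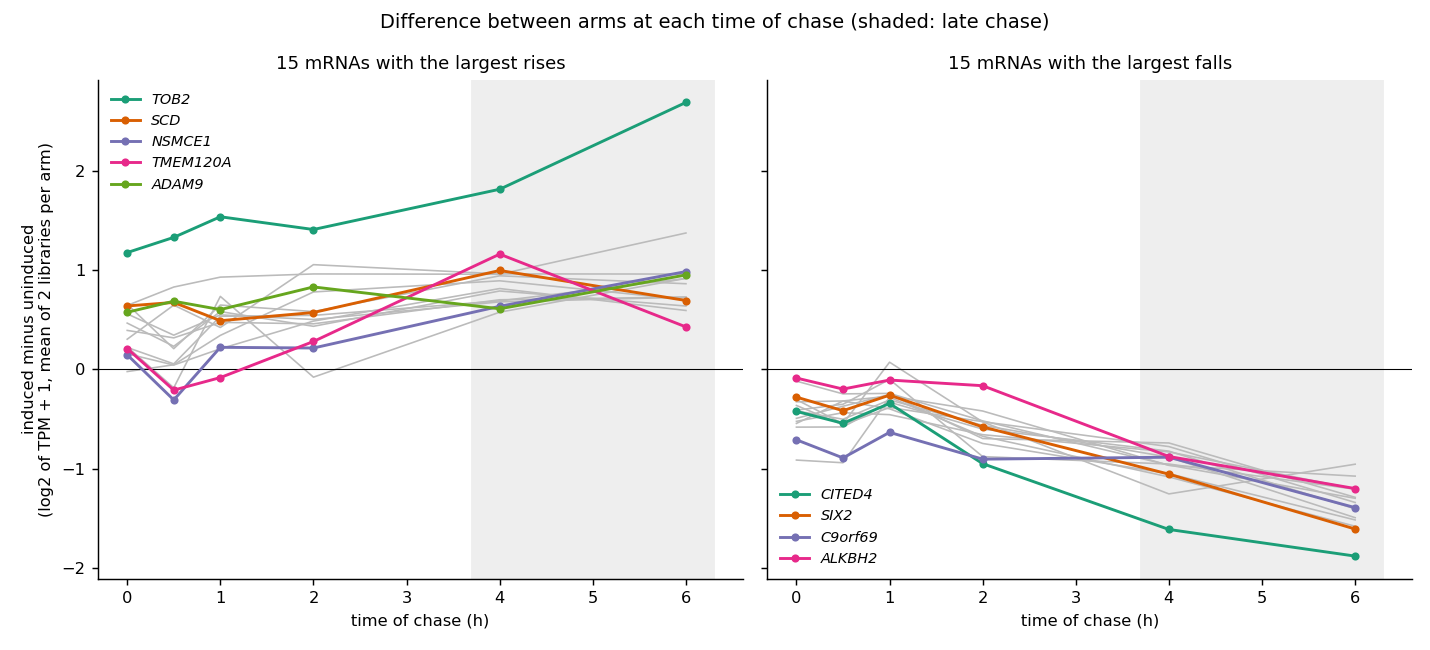
Difference between arms (vertical axis, log2 of TPM + 1, mean of 2 libraries per arm) at 0, 0.5, 1, 2, 4 and 6 h of chase for the 15 mRNAs with the largest late rises (left) and the 15 with the largest late falls (right), with the late times shaded and a few genes coloured. CITED4 moves from -0.44 in the first hour to -1.88 at 6 h, while SCD stays between 0.49 and 1.00.

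The mRNAs of the decay machinery itself were looked at as a group. In the BTG/TOB family 5 of 6 members were tested, and only TOB2 was higher. TOB1, the closest relative of TOB2, ranged over 103 to 178 TPM in the uninduced and 58.1 to 148 TPM in the induced libraries, with overlapping arms and a difference of -0.63 (SE 0.15, adjusted p = 0.0239). BTG2 was scarce, with 2.21 to 5.77 TPM in the uninduced and 1.00 to 3.91 TPM in the induced libraries, and differed by -0.74 (SE 0.19, adjusted p = 0.0323). Both calls were fragile. That of TOB1 held only without uninduced 4 h replicate 1 or induced 4 h replicate 2, and that of BTG2 only without an induced 4 h library, with adjusted p up to 0.0683 and 0.0866 in the other fits. With no filter on low values both ended (adjusted p = 0.0662 and 0.0787). BTG1 showed -0.54 and did not pass (adjusted p = 0.0518). Of 12 CCR4-NOT subunits 2 were lower (16.7%, against 12.3% of all genes) and none higher. CNOT8, a deadenylase subunit that TOB proteins bind, ranged over 92.2 to 109 TPM in the uninduced and 59.2 to 80.2 TPM in the induced libraries, lower in every induced library, with a difference of -0.54 (SE 0.063, adjusted p = 0.00327). CNOT2, a scaffold subunit, differed by -0.27 (SE 0.051, adjusted p = 0.0115). CNOT7, the close paralogue of CNOT8 and named here after its values were seen, ranged over 181 to 219.8 TPM in the uninduced and 194 to 234 TPM in the induced libraries and its difference was 0.091 (adjusted p = 0.261).

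Downstream decay factors were read against the 9.12% higher and 12.3% lower of all genes. Of 19 members of the PAN2-PAN3, PARN and decapping list, EDC4 was higher and DCP1A lower. The call of DCP1A ended without induced 6 h replicate 2 (adjusted p = 0.0576), and that of EDC4 held only without induced 6 h replicate 1 (adjusted p up to 0.13). EDC4 also lost its call under median-of-ratios scaling (0.0697), with no filter on low values beyond a value above 0 (0.0912), with no variance trend (0.0565), at a pseudocount of 0.1 (0.0504), with RMRP, MIR6723 and RPPH1 taken out before rescaling (0.0548) and in the fit of all 24 libraries (0.229). Of 16 exosome genes 1 was higher and 4 were lower, among them EXOSC4 (-0.65, SE 0.10, adjusted p = 0.0068), EXOSC6 (-0.49) and EXOSC3 (-0.47). Of 10 poly(A)-binding and partner genes 3 were higher and none lower, including PABPC4, a cytoplasmic poly(A)-binding protein, at 240.3 to 252 TPM in the uninduced and 287 to 343 TPM in the induced libraries (difference 0.32, SE 0.057, adjusted p = 0.00951), and LARP4 (0.28). Messages for 3′-end-binding regulators of stability went the other way, with 11 of 32 lower and none higher. MEX3A, an RNA-binding ubiquitin ligase, differed by -0.78 (SE 0.070, adjusted p = 0.00235). YTHDF2, a reader of N6-methyladenosine that promotes decay, stood at 439.9 and 417 TPM at 4 h and 277 and 259 TPM at 6 h in uninduced and 295 and 309 TPM at 4 h and 159 and 164 TPM at 6 h in induced cells. At each time the induced values were the lower ones, with a difference of -0.62 (SE 0.062, adjusted p = 0.00303). ZFP36L1, a decay factor for AU-rich mRNAs, differed by -0.57 (SE 0.063, adjusted p = 0.00308). Of 12 microRNA effector genes only XPO5 passed (0.28), and not without induced 6 h replicate 2 (adjusted p = 0.0562) or in the fit of all 24 libraries (0.132). That fit also called 0 of the poly(A)-binding genes higher, with PABPC4 at adjusted p = 0.089 and LARP4 at 0.0857. With single libraries left out the exosome list had 0 to 2 higher genes and 3 lower.

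Lists of inducible regulators were tilted to lower levels in induced cells. These lists and others in this report share some genes, such as ID3, which is also a member of the BMP and TGF-beta list. Their counts are therefore not independent. Among 63 immediate early genes 29 were lower and none higher, against 12.3% and 9.12% of all genes, and the list median was -0.35 against 0.029. After ID3, the members with the smallest adjusted p were KLF11 (-0.65, SE 0.074, adjusted p = 0.00315), SPRY2, an inhibitor of receptor kinase signalling (-0.79, SE 0.092, adjusted p = 0.00323), and CEBPD. KLF11 ranged over 66.2 to 98.7 TPM in the uninduced and 42.6 to 64.2 TPM in the induced libraries, with no overlap. The list's count was 17 without uninduced 6 h replicate 2 and 19 without induced 6 h replicate 2, and 18 with no filter on low values. Not every early gene was called. FOS was at 39.4 and 53.9 TPM at 4 h and 29.5 and 29.0 TPM at 6 h in uninduced and 33.5 and 68.0 TPM at 4 h and 27.7 and 35.6 TPM at 6 h in induced cells, which overlapped, and its difference was 0.077 (adjusted p = 0.825). JUN differed by 0.038 (adjusted p = 0.868). MYC was at 1479 and 995 TPM at 4 h and 814 and 506 TPM at 6 h in uninduced and 1153 and 637 TPM at 4 h and 506 and 314 TPM at 6 h in induced cells. At each time and replicate number its induced value was the lower one, but its replicates lay far apart in both arms. In the fit without a replicate term its difference of -0.59 did not pass (adjusted p = 0.146). FOS, JUN and MYC are named after their values were seen. In the first hour the list's median difference had been 0.069, and 20 members were called in the downward direction by the test of late minus first hour.

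Counts in the next lists stand against 12.3% lower and 9.12% higher among all genes. The KLF list had 6 of 14 lower and none higher, with KLF5 at -0.58, KLF16 at -0.64 and KLF4 at -0.62. Of 35 BMP and TGF-beta genes 9 were lower (25.7%) and 3 higher (8.57%, near the share of all genes). The lower ones included the ligand BMP2 (-0.58, SE 0.10, adjusted p = 0.00865), the corepressor TGIF1 (-0.60) and the target ID1 (-0.49). Of 30 p53 targets 9 were lower and 1 higher, with the nuclease AEN at -0.65 and the phosphatase PPM1D at -0.46. Of 29 genes of the integrated stress response 9 were lower and 2 higher. CHAC1, a glutathione-degrading enzyme, ranged over 9.50 to 31.3 TPM in the uninduced and 5.10 to 15.6 TPM in the induced libraries with a difference of -0.90 (SE 0.085, adjusted p = 0.00287). DDIT3 differed by -0.60 and CEBPG by -0.63. The p53 and stress response lists had 5 lower genes each without induced 6 h replicate 2, and also with no filter on low values. Leaving out single libraries moved the few higher calls to 0 to 2 in the BMP and TGF-beta list and to 0 or 1 in the p53 and stress response lists, and with no filter each of the 3 lists had 0. The lower BMP and TGF-beta calls were 6 to 9 with any library left out. In the Notch list 3 of 16 were lower and none higher: NRARP, HES7 (-0.37) and HES1 (-0.66).

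The oxidative stress list held calls in both directions. Of 26 members 8 were lower (30.8%) and 5 higher (19.2%), against 12.3% and 9.12% of all genes, and the median was -0.01. NFE2L2, which encodes the transcription factor NRF2, stood at 120.4 and 105 TPM at 4 h and 90.6 and 76.0 TPM at 6 h in uninduced and 71.2 and 59.7 TPM at 4 h and 44.9 and 41.6 TPM at 6 h in induced cells. The arms did not overlap and the difference was -0.85 (SE 0.089, adjusted p = 0.00308). Its small MAF partners MAFG (-0.62) and MAFF (-0.81) were lower too. The 8 lower calls became 4 or 5 without uninduced 6 h replicate 1 or 2, induced 4 h replicate 1 or induced 6 h replicate 2, and the 5 higher calls became 3 in the fit of all 24 libraries. In the NF-kB list 1 of 16 was called, NFKB2, which was higher (0.45, SE 0.061, adjusted p = 0.00469).

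Lists of homeobox, zinc finger, ZBTB and ZSCAN genes and of coregulators held more lower than higher calls, although in the 3 longest most members were not called. Of 42 homeobox genes of the HOX, MSX, DLX and sine oculis families 16 were lower and none higher, with a median of -0.26, against 12.3% lower among all genes. A further 26 were not called. Beside SIX2 the lower ones included HOXA11 (-0.81, SE 0.082, adjusted p = 0.00305), MSX1 (-0.73, SE 0.077, adjusted p = 0.00308) and HOXC9 (-0.72, SE 0.077, adjusted p = 0.00308). Of 392 C2H2 zinc finger genes 95 were lower and 3 higher, with 294 not called and a median of -0.16. ZNF593 ranged over 149 to 189.6 TPM in the uninduced and 95.9 to 129.6 TPM in the induced libraries, and ZNF622 over 146 to 339 TPM in the uninduced and 82.4 to 235 TPM in the induced libraries. ZNF593 showed no overlap between arms, whereas the induced 4 h values of ZNF622 exceeded its uninduced 6 h ones. Their differences were -0.55 (SE 0.046, adjusted p = 0.00215) and -0.71 (SE 0.062, adjusted p = 0.00235). ZBTB and ZSCAN factors had 18 of 52 lower, 34 not called and none higher, with ZBTB7A at -0.78. Of 8 SERTAD and CITED coregulators 6 were lower, with a median of -0.80, among them SERTAD2 (-0.74, SE 0.082, adjusted p = 0.00308) and CDCA4 (-0.89). All 3 IRF2BP corepressors were lower, IRF2BP1 by -0.90, IRF2BP2 by -0.66 and IRF2BPL by -0.45. Leaving out single libraries gave 13 to 16 lower homeobox genes, 61 to 95 lower C2H2 genes, with the fewest without induced 6 h replicate 2, and 10 to 17 lower ZBTB and ZSCAN genes, with 10 without uninduced 6 h replicate 1 or induced 6 h replicate 2 and 11 without uninduced 4 h replicate 2.

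Replication-dependent histone mRNAs end in a stem-loop in place of a poly(A) tail. Of 61 tested 23 were lower (37.7%, against 12.3% of all genes), 38 were not called and none was higher, with a median of -0.29. HIST1H3H was at 1018 and 1055 TPM at 4 h and 761 and 754 TPM at 6 h in uninduced and 771 and 692 TPM at 4 h and 573 and 492 TPM at 6 h in induced cells. The induced level was lower at each time, and the difference was -0.51 (SE 0.063, adjusted p = 0.00371). HIST1H1B, which encodes a linker histone, differed by -0.47 (SE 0.075, adjusted p = 0.00712). The histones' median had been -0.38 in the first hour, and 0 of 61 passed the test of late minus first hour in either direction. Histone genes share long stretches of sequence, so reads may have been divided among them and single members are uncertain. Their count of 23 became 12 without induced 6 h replicate 2, 13 without uninduced 6 h replicate 1 or uninduced 4 h replicate 2, 14 without uninduced 6 h replicate 2, 15 without induced 4 h replicate 1 and 13 with no filter on low values.

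In the opposite direction, lists for lipid synthesis and for proteins that pass through the secretory route held many higher genes. Among all genes 9.12% were higher and 12.3% lower. Of 30 genes of cholesterol and fatty acid synthesis 13 were higher and none lower, with a median of 0.30. ACLY, which supplies cytosolic acetyl-CoA, was at 95.4 and 90.6 TPM at 4 h and 95.5 and 90.2 TPM at 6 h in uninduced and 121 and 118 TPM at 4 h and 116 and 128 TPM at 6 h in induced cells. No libraries overlapped and the difference was 0.37 (SE 0.049, adjusted p = 0.00445). ACACA, which makes malonyl-CoA, differed by 0.39 (SE 0.053, adjusted p = 0.00456), and LSS, the enzyme that forms lanosterol, by 0.39 (SE 0.065, adjusted p = 0.00821). Of 28 lysosomal genes 13 were higher and none lower, with a median of 0.26. CD63 ranged over 416 to 498 TPM in the uninduced and 591 to 788 TPM in the induced libraries (0.49, SE 0.081, adjusted p = 0.00812), LAMP2 differed by 0.38 (SE 0.058, adjusted p = 0.0065), and the cathepsins A and B, CTSA and CTSB, by 0.48 and 0.36. Of 25 genes for matrix, integrins and matrix enzymes 11 were higher and none lower, with a median of 0.24. The integrin genes ITGAV and ITGB1 differed by 0.54 (SE 0.062, adjusted p = 0.00315) and 0.40 (SE 0.050, adjusted p = 0.00395), COL5A2 by 0.64, and the protease inhibitor TIMP1, over 94.2 to 127 TPM in the uninduced and 153 to 177 TPM in the induced libraries, by 0.55. The 13 higher calls of the lipid list became 5 to 8 whichever library was left out, other than uninduced or induced 6 h replicate 1. Those of the lysosomal list became 6 without uninduced or induced 6 h replicate 2. The matrix list kept 9 to 13, and the fit of all 24 libraries called 8 lysosomal and 7 matrix genes higher. In that fit LSS (adjusted p = 0.0982) and CTSA (0.0705) were not called, and with no filter on low values the lipid list had 8 higher genes.

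Genes of the endoplasmic reticulum (ER) folding machinery formed the list with the largest share of higher calls among those of more than 20 genes, 14 of 24 with 2 lower and a median of 0.23. These were 58.3% higher and 8.33% lower, against 9.12% and 12.3% of all genes. HYOU1, an ER chaperone, ranged over 30.0 to 34.9 TPM in the uninduced and 39.6 to 42.7 TPM in the induced libraries, higher in every induced library (0.37, SE 0.055, adjusted p = 0.00626). PDIA6, a disulfide isomerase, and CANX, a lectin chaperone, differed by 0.24 (SE 0.044, adjusted p = 0.0111) and 0.21 (SE 0.040, adjusted p = 0.0115). Of the 2 lower members, XBP1, a transcription factor of the unfolded protein response, was at 632 and 526 TPM at 4 h and 319 and 295 TPM at 6 h in uninduced and 352 and 451 TPM at 4 h and 188 and 199 TPM at 6 h in induced cells. At each time the induced values were the lower ones (-0.60, SE 0.10, adjusted p = 0.00728). DNAJB9, an ER cochaperone named after its values were seen, differed by -0.65 (SE 0.14, adjusted p = 0.0174). The count of 14 depended on single libraries and ran from 3 to 12 when any 1 was left out, with 3 without induced 6 h replicate 2. It stayed within 1.5 times of 14 only without uninduced 4 h replicate 1, and it was 7 in the fit of all 24 libraries and 6 with no filter on low values.

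The promoters of ER chaperone genes are known for the ER stress response element, in which CCAAT and CCACG stand 9 bases apart. To see whether members on either side of 0 share it, RefSeq promoters (GRCh38.p14, from 250 bases before to 50 bases after each start) were searched on both strands. The element was found in 27 of 35116 promoters (0.0769%) and in 15 of 9434 tested genes with a promoter entry (0.159%). It was found for 7 of the 22 list members with a promoter entry, namely 6 of 13 called higher, 1 of 2 called lower and 0 of 7 not called. These were CALR, CANX, CRELD2, HSP90B1, HSPA5 and PDIA6 among the higher genes and XBP1 among the lower, so genes of both directions held the element. Outside the list it was held by TMEM120A, called higher, and by ALG12, EIF2A, FICD, SERP1, SYNPO, TRIM5 and ZNF17, none of which was called. For 6 of the list's genes the element is shown with 20 bases on each side and its 2 parts in capitals, those of CALR and CRELD2 on the strand opposite to the gene.
HSPA5: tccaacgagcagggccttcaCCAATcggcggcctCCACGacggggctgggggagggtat
HSP90B1: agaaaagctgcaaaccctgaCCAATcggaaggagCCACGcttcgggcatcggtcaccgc
PDIA6: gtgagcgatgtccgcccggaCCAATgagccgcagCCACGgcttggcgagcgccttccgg
CALR: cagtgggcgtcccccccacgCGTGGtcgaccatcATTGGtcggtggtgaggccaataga
CRELD2: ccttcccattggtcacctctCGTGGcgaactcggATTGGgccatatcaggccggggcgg
XBP1: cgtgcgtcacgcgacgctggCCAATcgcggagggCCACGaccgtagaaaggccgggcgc
They lie, with the gene's strand, at chr9:125241371-125241429 (-), chr12:103930196-103930254 (+), chr2:10812833-10812891 (-), chr19:12938364-12938422 (+), chr22:49918534-49918592 (+) and chr22:28800583-28800641 (-) of GRCh38.p14. In this order the element begins 66, 194, 86, 225, 80 and 52 bases before the start site. HSPA5, the main ER chaperone BiP and named after its values were seen, was at 521 and 414 TPM at 4 h and 595 and 535 TPM at 6 h in uninduced and 607 and 601 TPM at 4 h and 717 and 662 TPM at 6 h in induced cells, higher in each induced library (0.33, SE 0.081, adjusted p = 0.0272). HSP90B1, CALR and CRELD2, also named after their values were seen, differed by 0.29, 0.23 and 0.41. The call of HSP90B1 ended without induced 6 h replicate 2 (adjusted p = 0.0591), and those of the other 3 in 5 or 6 of the 8 fits that left out 1 library. That of HSPA5 held without an uninduced 4 h library or uninduced 6 h replicate 1, that of CALR without uninduced 4 h replicate 1 or induced 4 h replicate 2, and that of CRELD2 without replicate 1 at 4 or 6 h of the uninduced arm or induced 4 h replicate 2. The call of CALR also ended under median-of-ratios scaling (adjusted p = 0.0562), with no variance trend (0.0517), with no filter (0.0574) and in the fit of all 24 libraries (0.0897). HSPA5 lost its call with no filter (0.0618), and CRELD2 lost its own on protein-coding transcripts only (0.11) and in the fit of all 24 libraries (0.0917).

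**Figure D4:**
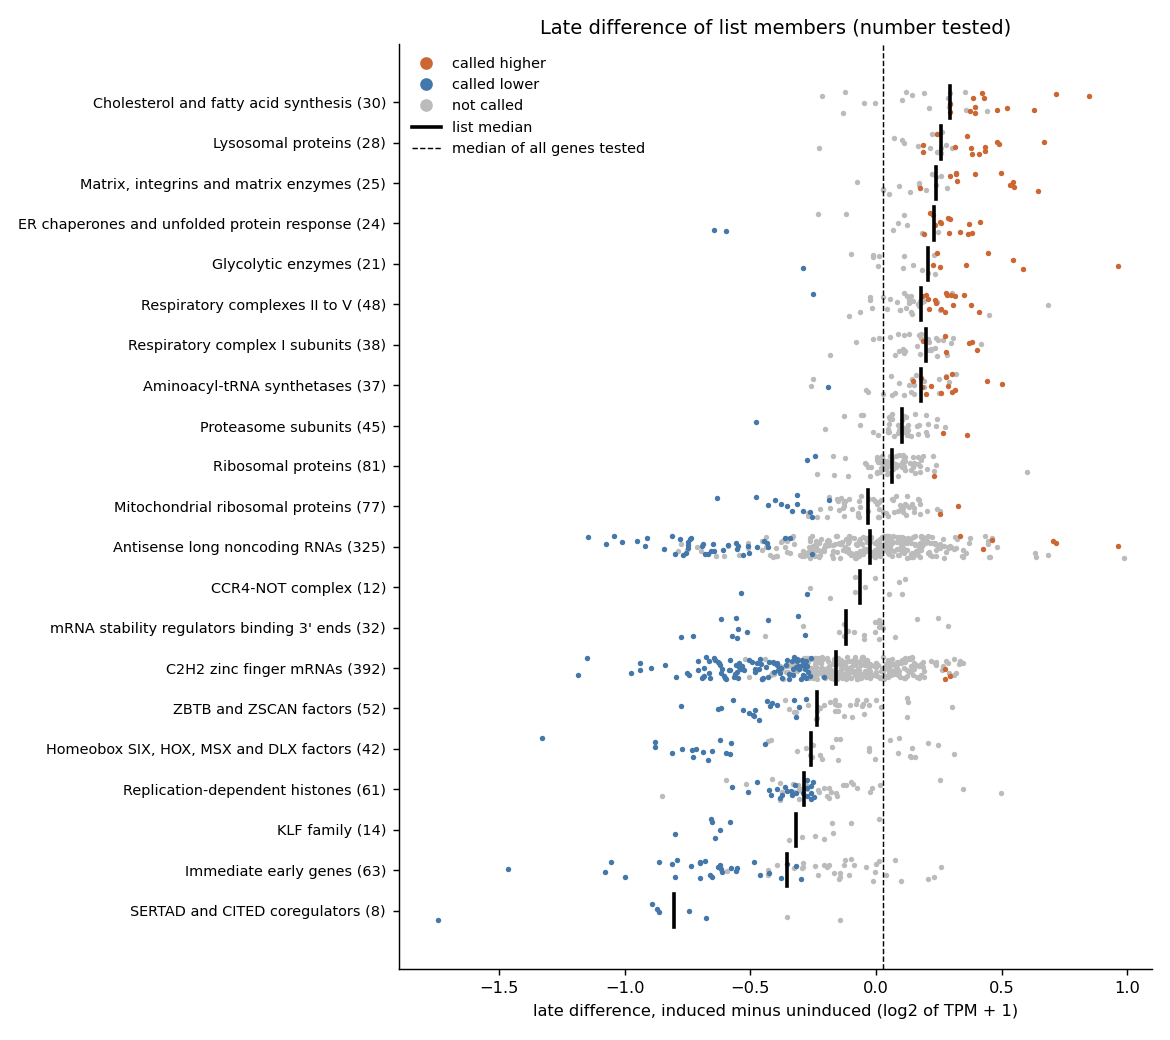
Late difference between arms (horizontal axis, log2 of TPM + 1) of each tested member of 21 gene lists, coloured by call, with a bar at the list median and a dashed line at the median of all genes tested. The medians of the transcription regulator and zinc finger lists lie left of the dashed line, down to -0.80 for SERTAD and CITED coregulators. Those of lipid, lysosomal and matrix genes lie right of it, up to 0.30.

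Energy metabolism and translation lists were shifted upward by smaller amounts. Their counts stand against 9.12% higher and 12.3% lower among all genes. Of 21 glycolytic genes 8 were higher and 1 lower. PKM, the last enzyme of glycolysis, stood at 805 and 864 TPM at 4 h and 1067 and 1055 TPM at 6 h in uninduced and 1319.8 and 1212 TPM at 4 h and 1568 and 1587 TPM at 6 h in induced cells. All induced values were above all uninduced ones, and the difference was 0.59 (SE 0.051, adjusted p = 0.00235). PGK1 differed by 0.24 and PFKM by 0.36. Of 38 complex I subunits 6 were higher and none lower, and of 48 subunits of complexes II to V 16 were higher and 1 lower. COX4I1 of complex IV ranged over 194 to 248 TPM in the uninduced and 250.2 to 315 TPM in the induced libraries (0.38, SE 0.055, adjusted p = 0.00555), and UQCRC2 of complex III over 64.7 to 96.5 TPM in the uninduced and 95.4 to 131 TPM in the induced libraries (0.41, SE 0.069, adjusted p = 0.00865). Of 37 aminoacyl-tRNA synthetase genes 13 were higher and 1 lower, including QARS (0.30, SE 0.054, adjusted p = 0.00985), VARS (0.32) and WARS (0.50). Among 59 initiation and elongation factors 10 were higher and 3 lower. EIF2B1 differed by 0.48, and EIF1, at 1583 to 1717 TPM in the uninduced and 1282 to 1392 TPM in the induced libraries, by -0.32. These counts moved with single libraries. The synthetases had 3 to 7 higher genes whichever library was left out, other than induced 4 h replicate 2, 8 under median-of-ratios scaling and 1 in the fit of all 24 libraries, where QARS (adjusted p = 0.168) and VARS (0.205) were not called. QARS was not called on protein-coding transcripts only either (0.205). Complexes II to V had 5 to 10 whichever was left out, other than replicate 2 at 4 h of either arm, 10 with no filter on low values or no variance trend, and 7 in the fit of all 24 libraries, which did not call COX4I1 (adjusted p = 0.0551). Complex I had 3 without replicate 2 at 6 h of either arm, 10 without induced 4 h replicate 2 or among genes averaging 5 TPM or more, and 12 under quantile normalization. The glycolytic list had 4 or 5 without replicate 1 at 4 h of either arm, uninduced 6 h replicate 2 or an induced 6 h library, 5 with no filter and 4 in the fit of all 24 libraries. The translation factors had 4 to 6 without a 6 h library or induced 4 h replicate 1, and 6 in the fit of all 24 libraries, which did not call EIF2B1 (adjusted p = 0.0514).

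The ribosomal protein, proteasome and mitosis lists held fewer calls than the 9.12% higher and 12.3% lower of all genes. Of 81 ribosomal protein genes 1 was higher and 2 were lower, with a median of 0.062. RPS21 was the higher one (0.23), and RPL13A (-0.24) and RPL28 (-0.28) were the lower ones. The call of RPS21 held only without uninduced 4 h replicate 1 or induced 4 h replicate 2 (adjusted p up to 0.111), and that of RPL13A ended without induced 6 h replicate 2 (adjusted p = 0.06). Of 45 proteasome genes 2 were higher and 1 lower, the lower one being the assembly factor PSMG3 (-0.48, SE 0.079, adjusted p = 0.00807). Of 41 mitotic genes 2 were higher and 2 lower, and of 8 chaperonin genes 1 was higher. Of 77 mitochondrial ribosomal protein genes 13 were lower and 2 higher. MRPL54 ranged over 167 to 196 TPM in the uninduced and 119 to 147 TPM in the induced libraries, without overlap (-0.43, SE 0.065, adjusted p = 0.00626). Those 13 became 5 or 6 whichever 6 h library was left out. Small counts moved as well. Under quantile normalization 3 ribosomal protein and 7 proteasome genes were higher, and with single libraries left out the higher genes were 0 to 6 in both lists, 0 or 1 among mitotic genes and 0 to 3 among chaperonin genes. RPS21 lost its call under median-of-ratios scaling (adjusted p = 0.0746), with no filter (0.0721), with no variance trend (0.0564) and in the fit of all 24 libraries (0.0514), and RPL28 in the last of these (0.114). Among 44 genes of the G1/S transition and replication 8 were lower and 3 higher, with the cyclins CCNE1 and CCNE2 at -0.66 (SE 0.086, adjusted p = 0.00426) and -0.59 (SE 0.085, adjusted p = 0.0055) and the phosphatase CDC25A at -0.50. With single libraries left out, 6 to 9 of these were lower and 1 to 4 higher. None of the 4 CLK kinase genes and none of 23 RNA polymerase III entries was called. Among the latter were SNAR entries with values identical to those of another entry, so the 23 are not all separate measurements.

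Transport genes were called in both directions, with lower calls near the share of all genes tested (12.3% lower and 9.12% higher). Of 48 nucleoporin and transport receptor genes 12 were higher (25%) and 5 lower (10.4%), with NUP107 higher (0.29) and NUP62 lower (-0.78, SE 0.088, adjusted p = 0.00308). Of 23 mRNA export genes 4 were higher (17.4%) and 3 lower (13%). NXT1, the partner of the main mRNA export receptor, stood at 246 and 252 TPM at 4 h and 119 and 145 TPM at 6 h in uninduced and 126 and 132 TPM at 4 h and 40.8 and 48.9 TPM at 6 h in induced cells. At each time the induced arm was lower, and with -1.24 (SE 0.13, adjusted p = 0.00308) it had the widest difference of its list. THOC6 and DDX39B, members of the export complex TREX, were higher (0.38 and 0.30), and the call of THOC6 ended without replicate 2 at 6 h of either arm (adjusted p = 0.0588 and 0.0503). The export list had 1 to 4 higher and 1 or 2 lower genes with single libraries left out, with 1 of each without induced 6 h replicate 2. It had 8 higher under quantile normalization or with no filter, and 0 in the fit of all 24 libraries, in which THOC6 (adjusted p = 0.112), DDX39B (0.2) and NUP107 (0.102) were not called. The nucleoporin list had 3 to 6 higher genes without uninduced 4 h replicate 1 or a 6 h library, 3 lower genes without uninduced 4 h replicate 2 or a 6 h library other than induced replicate 1, and 2 higher and 3 lower genes in the fit of all 24 libraries. Of 22 heat shock genes 4 were higher and 4 lower (18.2% each way), and the cochaperone DNAJB1 was among the lower (-0.68, SE 0.094, adjusted p = 0.00479). These became 0 to 6 higher and 1 to 4 lower with single libraries left out, and 1 of each with no filter. Among 30 actin cytoskeleton genes 6 were higher (20%) and none lower, with CALD1 (0.54, SE 0.063, adjusted p = 0.00326) higher in every induced library. That count was 2 or 3 without an uninduced 6 h library or induced 6 h replicate 2.

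Of 1693 genes without a protein-coding RefSeq transcript 43 were higher (2.54%) and 113 lower (6.67%), against 10.1% and 13.1% of 11723 genes with one. NEAT1 and MALAT1, nuclear long noncoding RNAs, were both present in these libraries of cytoplasmic RNA and both higher. Whether nuclear RNA was carried over into the libraries, and to a like extent in both arms, was not tested. NEAT1 was at 54.9 and 56.5 TPM at 4 h and 31.3 and 35.0 TPM at 6 h in uninduced and 74.5 and 96.2 TPM at 4 h and 99.4 and 84.2 TPM at 6 h in induced cells (1.02, SE 0.18, adjusted p = 0.00968). MALAT1 was at 289 and 238 TPM at 4 h and 197 and 242 TPM at 6 h in uninduced and 424 and 408 TPM at 4 h and 439 and 464 TPM at 6 h in induced cells (0.85, SE 0.11, adjusted p = 0.00395). Neither overlapped between arms, which was a condition for naming them, and their first-hour differences were already 0.73 and 1.03. Of 325 antisense RNAs 40 were lower (12.3%, the same share as among all genes tested) and 6 higher (1.85%, against 9.12% of all genes). WAC-AS1 ranged over 119 to 154 TPM in the uninduced and 67.9 to 100.3 TPM in the induced libraries (-0.68, SE 0.066, adjusted p = 0.00287). HNRNPU-AS1 was higher (0.72) and HOXA10-AS lower (-1.15). Without induced 6 h replicate 2 there were 26 lower and 3 higher antisense RNAs, and the fit of all 24 libraries also gave 3 higher. The sources used here do not say whether reads were counted by strand, so antisense levels may include reads of their partners. Of 169 intergenic RNAs 13 were lower (7.69%) and 9 higher (5.33%), both below the shares of all genes, with LINC00958 at -0.67 (SE 0.061, adjusted p = 0.00235). The 9 became 1 to 5 whichever library was left out, and the 13 became 5 to 8 with any left out other than uninduced 6 h replicate 2 or induced 4 h replicate 2. With no filter on low values they were 3 and 7, and the higher count was 5 among genes averaging 5 TPM or more and 1 in the fit of all 24 libraries. LINC00263 was higher (0.81), a call that ended in 4 of the 8 fits with 1 library left out and held without either uninduced 6 h library, induced 4 h replicate 2 or induced 6 h replicate 1 (adjusted p up to 0.0624), and that ended with no filter (0.0695). PP7080 and LOC439994 were lower (-1.09 and -0.98). Of 176 small nucleolar RNAs 3 were higher (1.7%) and 5 lower (2.84%), again below the shares of all genes. The lower ones were 1 or 2 without a 6 h library or induced 4 h replicate 1, 3 in the fit of all 24 libraries and 0 with no filter. SNORA60 differed by -1.02, and its call held only without an uninduced 4 h library, uninduced 6 h replicate 2 or induced 4 h replicate 2 (adjusted p up to 0.0641). It ended with no filter (0.0633) and in the fit of all 24 libraries (0.299).

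Among the noncoding entries with wide late differences were microRNA precursors, which are short. MIR4653 was listed at 0 in all 4 uninduced libraries and at 9.41 and 8.21 TPM at 4 h and 20.7 and 15.3 TPM at 6 h in the induced ones. The arms did not overlap, which was a condition for naming the entry. However, the uninduced mean at 0 h had been 9.55 TPM, and the first-hour difference of MIR4653 was -1.15 against 3.76 late (late minus first hour 4.92, adjusted p = 0.012). MIR614 was at 26.0 and 22.1 TPM at 4 h and 31.6 and 22.5 TPM at 6 h in uninduced and 8.12 and 7.08 TPM at 4 h and 0 and 6.58 TPM at 6 h in induced cells. Its induced values were lower in all libraries, again a condition for naming it, with 1 of them listed at 0. The difference was -2.44 (SE 0.64, adjusted p = 0.0337). The call of MIR614 held only without an induced 6 h library (adjusted p up to 0.0911), and it was lost at a pseudocount of 0.1 (0.109), with no filter (0.0927) and in the fit of all 24 libraries (0.16). MIR22HG, which hosts miR-22, ranged over 11.4 to 17.5 TPM in the uninduced and 5.23 to 11.8 TPM in the induced libraries (-0.77, SE 0.12, adjusted p = 0.00683). The mature products of these entries, from RefSeq (GRCh38.p14), are shown with the seed, bases 2 to 8, in capitals. Mature microRNAs were not measured.
miR-22-5p: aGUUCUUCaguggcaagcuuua
miR-22-3p: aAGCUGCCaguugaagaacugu
miR-614: gAACGCCUguucuugccaggugg
miR-4653-5p: uCUCUGAGcaaggcuuaacacc
miR-4653-3p: uGGAGUUAaggguugcuuggaga
No seed is shared among them.

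To relate the late difference to how RNAs behaved earlier, genes were divided by their change from 0 to 2 h in uninduced cells, which uses no late library. Higher calls were rare among the genes that lost share fastest. Of 200 genes that fell by more than 1 on the log2 scale, 1% were higher and 13% lower late, and of 551 that fell by 0.5 to 1, 2.18% were higher and 16% lower. Among 3738 genes that fell by less than 0.5 the shares were 6.61% and 11.5%. Among 6690 genes that rose by up to 0.5 they were 10.6% and 11.9%, and among 2237 that rose by more they were 11.4% and 13.9%. The share of higher calls thus ran from 1% to 11.4% across the bands, while the share of lower calls stayed between 11.5% and 16%. Median differences were -0.07 and -0.11 in the 2 fastest bands and 0.02 to 0.04 in the others. The bands mixed genes with and without a protein-coding transcript, of which 10.1% and 2.54% were called higher, and genes of all levels. They were not divided by class or level, so the part of either in these shares was not tested.

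**Figure D5:**
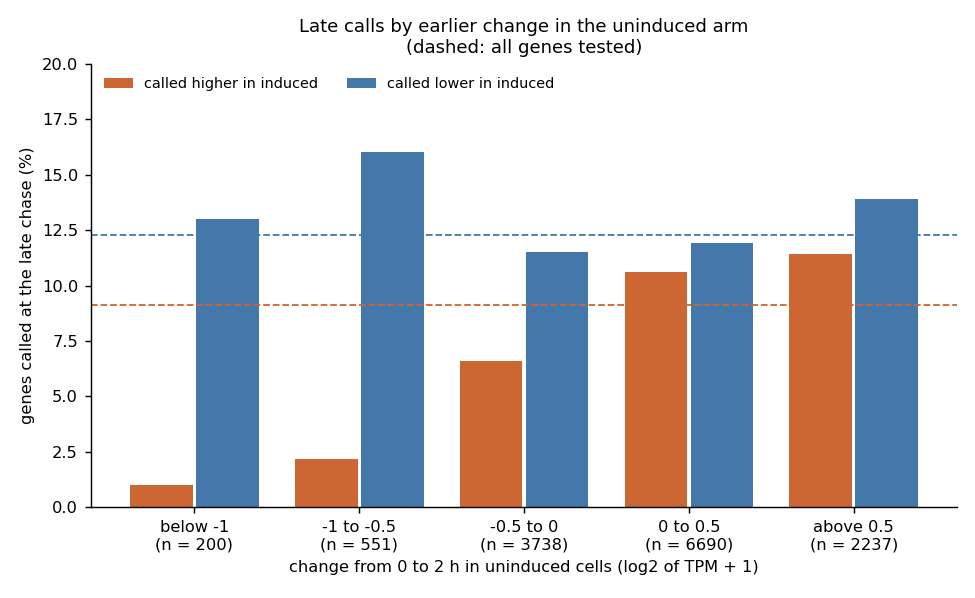
Share of genes called higher or lower at the late chase (vertical axis, %) in 5 bands of the change from 0 to 2 h in uninduced cells (horizontal axis, log2 of TPM + 1), with dashed lines at 9.12% and 12.3% for all genes tested. Higher calls run from 1% in the band of largest loss to 11.4% in the band of largest gain.

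Marker genes were examined in the same libraries. Of 10 osteoblast lineage markers 4 were tested and none was called, and 6 stayed under 1 TPM in all 8 libraries, with ALPL, IBSP and TWIST1 at 0. Their summed level was 27.1 to 35.6 TPM in uninduced and 24.9 to 42.1 TPM in induced libraries. Of 11 leukocyte markers 8 stayed under 1 TPM, with CD3D, MS4A1, HBB and TYROBP at 0, and the sums were 21.0 to 27.5 TPM and 24.5 to 35.5 TPM. CD68, which also marks lysosomes, was called higher (0.54, SE 0.14, adjusted p = 0.0328), a call that ended in 6 of the 8 fits with 1 library left out and held only without induced 4 h replicate 1 or uninduced 4 h replicate 2, and it ended with no filter (adjusted p = 0.0751). Of 10 epithelial markers 7 stayed under 1 TPM, with EPCAM and KRT5 at 0, while the keratins KRT8 and KRT18 were abundant. KRT8 stood at 726 and 859 TPM at 4 h and 964 and 1019.7 TPM at 6 h in uninduced and 1099 and 1071 TPM at 4 h and 1628 and 1375 TPM at 6 h in induced cells, higher in every induced library (0.53, SE 0.080, adjusted p = 0.00645), and the list's sums were 2301 to 2894 TPM and 2565 to 4191 TPM. Of 8 endothelial markers 6 stayed under 1 TPM, and none was called, with sums of 28.1 to 30.3 TPM and 25.8 to 30.3 TPM. The part of cell make-up in the differences above was not tested.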

How the data were processed

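Bromouridine-tagged cytoplasmic RNA of 24 libraries was analysed, and the 8 at 4 and 6 h of chase give the late comparison. The authors deposited a table of TPM for 48009 transcripts. RSEM 1.3.0, Bowtie2, Trim Galore and the build hg19 are listed in the submitters' processing notes. Read depth is not given in the sources used here, so no counting error could be set. TPM were summed per gene, leaving out 3 transcripts without a gene name, and a gene was kept if its mean over the 24 libraries reached 1 TPM. Date-like names (26) were not named. Of the genes tested, 48 held values identical to those of another gene, among them SNAR and some histone entries, and each was counted.

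Differences of log2(TPM + 1) were fitted in limma 3.58.1 (R 4.3.3, with the data.table package) with time and arm as terms, moderated with a variance trend, and tested two-sided with Benjamini-Hochberg adjustment. The change between 4 and 6 h was an interaction term, and late minus first hour a contrast of group means over all 24 libraries. Named genes were TOB2, the 15 largest mRNA and 5 largest noncoding differences each way (called, mean of at least 5 TPM, arms not overlapping), the 5 largest shifts between times, and up to 4 genes per list by p. A few genes that the rule takes are not reported here. Members and lists were chosen with earlier results of these data known. The fit was checked on simulated data. Alternatives covered pseudocount, filter, scaling, the genes included, the libraries fitted, a replicate term, the variance trend and leaving out each library. Promoters and miRNAs came from RefSeq (GRCh38.p14), and Python 3.11.15 with matplotlib 3.10.9 drew the plots.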

Additional observations from a re-analysis of the deposited data

Results flagged for a closer look

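For 23 named genes the late difference differed from the first-hour difference by limma (adjusted p under 0.05 over all genes tested, 24 libraries). Each value below is that shift on the log2(TPM + 1) scale, negative where the gene had moved down in induced relative to uninduced cells. These genes were named for large late differences or for the shift itself, which favours passing, against 5.72% of all genes tested.

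Among the named mRNAs with large late falls, the shift was -1.31 for CITED4, -1.01 for SIX2, -0.93 for PDCD7, -0.91 for ALKBH2, -0.86 for NRARP, -0.84 for C19orf83 and -0.78 for RPP25. It was -0.72 for KCTD11, -0.64 for TLX3, -0.62 for THAP11, -0.62 for FZD9 and -0.55 for ITPRIPL2. The call of KCTD11 ended without induced 4 h replicate 1, induced 6 h replicate 1, uninduced 4 h replicate 2 or uninduced 6 h replicate 1. FZD9 and ITPRIPL2 lost theirs under both median-of-ratios scaling and quantile normalization, and C19orf83 (adjusted p = 0.0871) and KCTD11 (0.0717) under quantile normalization.

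Other downward shifts were those of ID3 (-1.58), CITED2 (-1.19), MIR22HG (-1.13) and FKBPL (-1.12). The noncoding PP7080 shifted by -0.68 and LOC439994 by -0.63, and these calls ended in 10 and 15 of the 20 fits that left out 1 library. Median-of-ratios scaling ended both (adjusted p = 0.1 and 0.0549), and quantile normalization that of LOC439994 (0.114).

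Upward shifts were 4.92 for MIR4653, 1.22 for BLOC1S5-TXNDC5, 0.90 for TOB2, 0.82 for TMEM120A and 0.75 for NPFF, whose call both scalings ended (adjusted p = 0.0588 and 0.0615). Single libraries left out ended the calls of BLOC1S5-TXNDC5 in 12, TMEM120A in 6 and NPFF in 14 of 20 fits. Groups of 2 libraries were too small for a check of single outlying libraries.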

How the results depend on the processing

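The late counts of 1224 higher and 1648 lower genes stayed within 1.5 times under the other pseudocounts, filters, scalings and gene sets tried (925 to 1558 higher, 1196 to 1861 lower). The fit of all 24 libraries gave 562 higher, and 4 h alone and 6 h alone each gave 0 higher and 0 lower, with fewer libraries in the fit. Leaving out single libraries gave 449 to 1043 higher and 948 to 1580 lower genes, 1 to 10 calls for the 6 h minus 4 h difference, and 473 to 978 lower and 13 to 63 higher genes for late minus first hour. That last contrast gave 153 higher genes under median-of-ratios scaling and 212 under quantile normalization. With 0 h alone as the first hour it gave 171 lower genes and 1 higher. The cause was not tested. Over the 205 named genes called late, 159 kept their call whichever library was left out, 46 lost it in some, and 0 reversed. Depth is unknown, so values near 1 TPM carry a counting error that could not be set.

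With the replicate block, the number shared by replicates as a term, 1494 genes were higher and 1840 lower late. The block gave 0 calls for 6 h minus 4 h, and 131 higher and 1150 lower genes for late minus first hour. Deviations of same-numbered libraries from their group means correlated at 0.0203 to 0.156 over the 6 times, above 0 at all and above 0.1 at 3. The labels do not say that a number marks a shared culture or day, so the libraries were not treated as pairs.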
